A study of Mus musculus with 8 samples.

Results

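A set of 30 genes of the intestinal absorptive epithelium was followed through mouse bile duct and pancreatic duct and the organoids grown from each. They were the rows of the deposited expression table whose symbol was in a list of intestinal absorptive genes, 30 of 31228 genes. All samples came from C57BL/6 mice. The groups were extrahepatic bile duct epithelium (1 library), pancreatic duct epithelium (1 library), extrahepatic bile duct organoids (3 cultures) and pancreatic duct organoids (3 cultures). The ducts were dissected by hand and digested with collagenase IV, and the epithelia went directly into Trizol. The organoids were grown in Matrigel for 3 to 4 passages, first in a medium with Wnt3A, R-spondin-1, Noggin, EGF, FGF10, nicotinamide and Y27632, and then without Wnt3A and Y27632. The study asked how alike the ducts, and the organoids made from them, are in gene expression. The labels give neither the number of mice nor whether 2 organoid cultures came from separate animals. A p-value between the organoid groups thus measures the spread between cultures only. The labels name no genotype, drug or injury for any group.

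An absorptive enterocyte is the main cell of the small intestinal villus. Its apical face is a brush border of microvilli held up by an actin core and linked tip to tip by protocadherins. Enzymes anchored there cut sugars and peptides, transporters beside them take up the products, and the cell packs dietary fat into lipoproteins. The homeobox factors Cdx1 and Cdx2 are known as master regulators of intestinal identity. Adult bile and pancreatic ducts line the outflow of liver and pancreas and open into the duodenum, and their cells carry microvilli too, so some brush border genes are shared by gut and duct.

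Values are FPKM as deposited (fragments per kilobase of exon, relative to sequencing depth), a level that can be compared between genes. The 3 organoid values of a group are always given in the order of replicates 1, 2 and 3, and of the epithelia bile duct always comes first. Recovered from the FPKM, the libraries held 12876470 (bile duct epithelium), 15455993 (pancreatic duct epithelium) and 15405377 to 20828217 (organoids) gene reads. A single library stands for each epithelium, so differences from 1 epithelium have no replicate check and were not tested on their own. They are given as log2 differences of scaled FPKM + 1 and are called when they reach 2-fold, for organoids only with all 3 cultures on the same side of the epithelium.

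The promoters of 4 genes are shown first, 2 with high levels in every organoid (Lgals2 and Lgals4) and 2 that were far lower there than in bile duct epithelium (Rbp2 and Fabp2). Each is the 250 bases before the RefSeq start on GRCm38.p6, printed 5′ to 3′ on the gene's strand. Capitals mark matches, on either strand, to 4 short motifs of factors active in gut epithelium: the CDX core TTTATG, the GATA core AGATAA, the HNF1 core GTTAAT and the HNF4 core CAAAGTC.
Lgals2: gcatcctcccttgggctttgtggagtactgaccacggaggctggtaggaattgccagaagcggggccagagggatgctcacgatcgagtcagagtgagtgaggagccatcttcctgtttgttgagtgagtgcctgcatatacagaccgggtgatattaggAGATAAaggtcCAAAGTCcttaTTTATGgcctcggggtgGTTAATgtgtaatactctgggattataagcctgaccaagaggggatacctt
Lgals4: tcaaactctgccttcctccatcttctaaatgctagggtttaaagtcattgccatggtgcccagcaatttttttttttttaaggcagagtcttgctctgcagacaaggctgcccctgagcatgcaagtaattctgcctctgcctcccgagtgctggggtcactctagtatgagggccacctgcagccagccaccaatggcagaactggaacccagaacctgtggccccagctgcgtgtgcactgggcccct
Rbp2: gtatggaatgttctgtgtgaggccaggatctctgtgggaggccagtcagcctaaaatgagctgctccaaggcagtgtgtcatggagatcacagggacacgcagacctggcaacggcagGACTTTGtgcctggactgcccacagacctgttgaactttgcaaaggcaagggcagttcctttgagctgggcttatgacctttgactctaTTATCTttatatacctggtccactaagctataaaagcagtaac
Fabp2: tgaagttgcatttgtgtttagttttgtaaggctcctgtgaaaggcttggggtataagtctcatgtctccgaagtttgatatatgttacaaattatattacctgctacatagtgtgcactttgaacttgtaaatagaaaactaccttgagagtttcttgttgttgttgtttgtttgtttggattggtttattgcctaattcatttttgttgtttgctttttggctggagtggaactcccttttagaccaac
The Lgals2 window lies at chr15:78855530-78855779 on the minus strand, the Lgals4 window at chr7:28833544-28833793, the Rbp2 window at chr9:98490287-98490536 and the Fabp2 window at chr3:122894822-122895071, these 3 on the plus strand. Lgals2 held each of the motifs once: AGATAA 90 to 85 bases before the start, CAAAGTC 79 to 73, TTTATG 68 to 63 and GTTAAT 51 to 46 bases before it. Of 32851 RefSeq promoters of the same length, 1 held all 4 motifs, and it was that of Lgals2. How many would hold all 4 by the shares of the single motifs was not worked out, so nothing is read from this. Rbp2 held a reverse-strand AGATAA 43 to 38 bases before the start and a reverse-strand CAAAGTC 132 to 126 bases before it, at a RefSeq start 4422 bases inside the gene as the expression table bounds it. None of these letters stood in the Lgals4 and Fabp2 windows, nor in that of Vil1, a gene high in every organoid whose window is not printed. Promoters were found for 26 of the 30 genes, and 13 of the 26 held no motif. TTTATG stood in 4 of the 26 (Cdhr5, Lgals2, Sis and Lct) against 10.8% of all promoters, AGATAA in 6 against 9.99%, GTTAAT in 5 against 6.43% and CAAAGTC in 5 against 3.84%. A match is a description of the letters and not a binding site.

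Bile duct epithelium expressed nearly all of the 30 genes, pancreatic duct epithelium fewer and at lower levels, and the organoids a few of them at high levels. Bile duct epithelium was above pancreatic duct epithelium for 29 of the 30 genes, the exception being the glucose transporter Slc2a2. At least 1 FPKM was reached by 29 genes in the bile duct library, by 13 in the pancreatic duct library and by 10 to 12 in each organoid. At least 10 FPKM was reached by 19 genes in bile duct epithelium, by 1 (Anpep) in pancreatic duct epithelium and by 4 to 6 in each organoid. The summed FPKM of the 30 genes was 1439 and 98.4 in the epithelia, 349.7, 513 and 762 in the bile duct organoids and 1198, 260.0 and 628 in the pancreatic duct organoids. Those organoid sums rested on few genes: Vil1, Cdh17, Lgals4 and Lgals2 were each above 40 FPKM in every organoid, and Cdx2, Dpp4, Mttp and Rbp2 were the other 4 of 8 genes at 1 FPKM or more in every organoid. In 13 genes no organoid reached 1 FPKM.

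**Figure D1:**
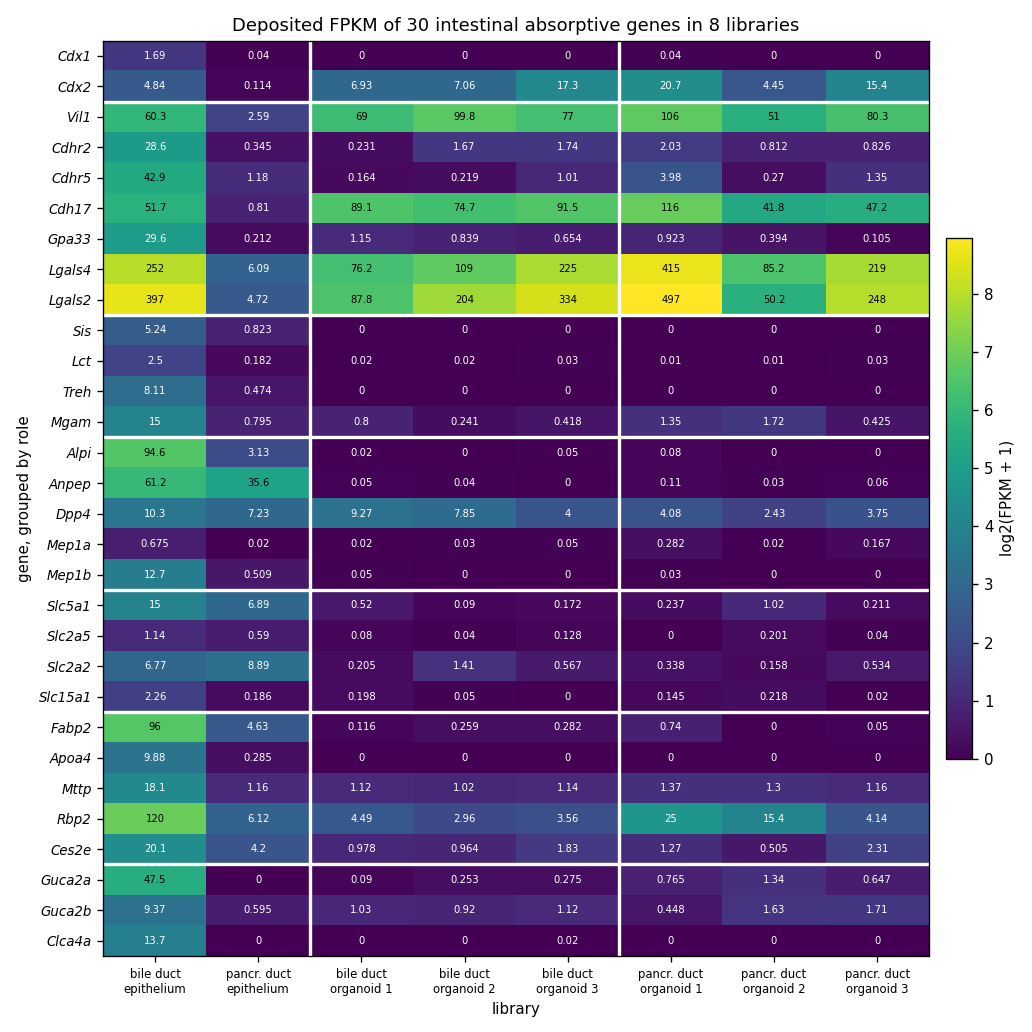
Level of each of the 30 genes (rows, grouped by role) in the 8 libraries (columns); colour is log2(FPKM + 1) and the printed number is the deposited FPKM. The bile duct epithelium column is filled almost throughout, while the organoid columns are filled for Cdx2, Vil1, Cdh17, Lgals4, Lgals2 and Dpp4 and nearly empty for Sis, Lct and Treh.

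Other cell types were present in the dissected tissue and differed between the epithelia. Summed FPKM of 8 acinar genes (led by Ctrb1, Prss2 and Pnlip) was 17499 and 36387 in the epithelia and 1.66 to 8.18 in the organoids, where Pnlip was at 0 throughout. For 10 stromal and leukocyte genes (led by Acta2, Myh11 and Col3a1) the sums were 2785, 4514 and 0.730 to 2.32, and for 8 hepatocyte genes (led by Ttr, Cyp2e1 and Alb) 268, 97.5 and 8.61 to 145. Markers of some neighbouring gut cells were higher in bile duct, as the 30 genes were. Paneth and goblet cell genes (18) summed to 3324 against 669.8, or to 2878 against 34.1 without Zg16, which acinar cells make too and which was higher in pancreatic duct. Enteroendocrine genes (10) were near equal in sum, at 39.0 against 35.7, but they ran in both directions, with 6 of the 10 higher in bile duct. Chgb (11.2 against 1.72) and Sct (7.22 against 0.201) were higher there. Pyy (9.23 against 15.1) and Gcg (1.56 against 9.35), which is also an islet gene, were lower. The duodenal uptake and gland genes (8, with Tff2 and Muc6 of the mucous glands) summed to 1689.5 against 265. Colonic genes (8) summed to 14.3 and 3.23, and ileal genes (7) to 9.65 and 1.82. The 12 duct genes, led by Krt8, Krt18 and Krt19, summed to 2566, 632 and 5546 to 11314, and all 12 were at 1 FPKM or more in every organoid. The part of these cells in the results below was not tested. In such bulk samples fewer cells of a type and less RNA per cell cannot be told apart. Mitochondrial genes took 24.9% and 18.8% of FPKM in the epithelia and 5.43% to 7.29% in the organoids.

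Both homeobox factors were measured, and they parted in culture. Cdx2 (chr5:147300805-147307270) was at 4.84 and 0.114 FPKM in the epithelia, at 6.93, 7.06 and 17.3 in bile duct organoids and at 20.7, 4.45 and 15.4 in pancreatic duct organoids. It was low in the pancreatic duct epithelium alone, where 4 reads stood behind the value, against 177 to 726 reads in each organoid. Cdx1 was at 1.69 FPKM in bile duct epithelium (38 reads), at 0.037 in pancreatic duct epithelium and in pancreatic duct organoid 1 (1 read each) and at 0 in the other 5 organoids. Against a floor of 3 reads over the 3 bile duct organoids, Cdx1 was at least 55.3-fold higher in bile duct epithelium. Every organoid thus held far more Cdx2 than Cdx1 reads.

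The structural and adhesion genes held the highest levels of all, in bile duct epithelium and in organoids. Lgals2, a galectin of the gut epithelium (chr15:78850862-78855529, minus strand), was at 397 and 4.72 FPKM in the epithelia, at 87.8, 204 and 334 in bile duct organoids and at 497, 50.2 and 248 in pancreatic duct organoids. Lgals4, a second galectin that gathers glycoproteins for apical delivery (chr7:28833854-28841708), was at 252 and 6.09 FPKM in the epithelia, at 76.2, 109 and 225 in bile duct organoids and at 415, 85.2 and 219 in pancreatic duct organoids. For both genes bile duct epithelium lay above all organoids except pancreatic duct organoid 1, and pancreatic duct epithelium lay below all of them. Lgals2 shares 41 bases with Cdc42ep1 on the opposite strand, which reached 75.2 FPKM, and the strand setting of the counting is not given in the sources used here.

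Cdh17, the liver-intestine cadherin of the lateral membrane (chr4:11758147-11817895), was at 51.7 and 0.810 FPKM in the epithelia, at 89.1, 74.7 and 91.5 in bile duct organoids and at 116, 41.8 and 47.2 in pancreatic duct organoids. Vil1, the actin bundler villin of the microvillar core (chr1:74409376-74435559), was at 60.3 and 2.59 FPKM in the epithelia, at 69.0, 99.8 and 77.0 in bile duct organoids and at 106, 51.0 and 80.3 in pancreatic duct organoids. For each of these genes the bile duct organoids all lay above their epithelium, and every organoid lay above pancreatic duct epithelium. The organoids of the 2 organs overlapped in both.

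The protocadherins that link microvilli did not stay with villin. Cdhr2 was at 28.6 and 0.345 FPKM in the epithelia, at 0.231, 1.67 and 1.74 in bile duct organoids and at 2.03, 0.812 and 0.826 in pancreatic duct organoids. Its partner Cdhr5 was at 42.9 and 1.18 FPKM in the epithelia, at 0.164, 0.219 and 1.01 in bile duct organoids and at 3.98, 0.270 and 1.35 in pancreatic duct organoids. Gpa33, an immunoglobulin-like surface antigen of intestinal cells, was at 29.6 and 0.212 FPKM in the epithelia, at 1.15, 0.839 and 0.654 in bile duct organoids and at 0.923, 0.394 and 0.105 in pancreatic duct organoids. In all 3 genes every organoid lay far below bile duct epithelium. Against pancreatic duct epithelium, 5 of 6 organoids were higher in Cdhr2, 5 of 6 in Gpa33 and 2 of 6 in Cdhr5.

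**Figure D2:**
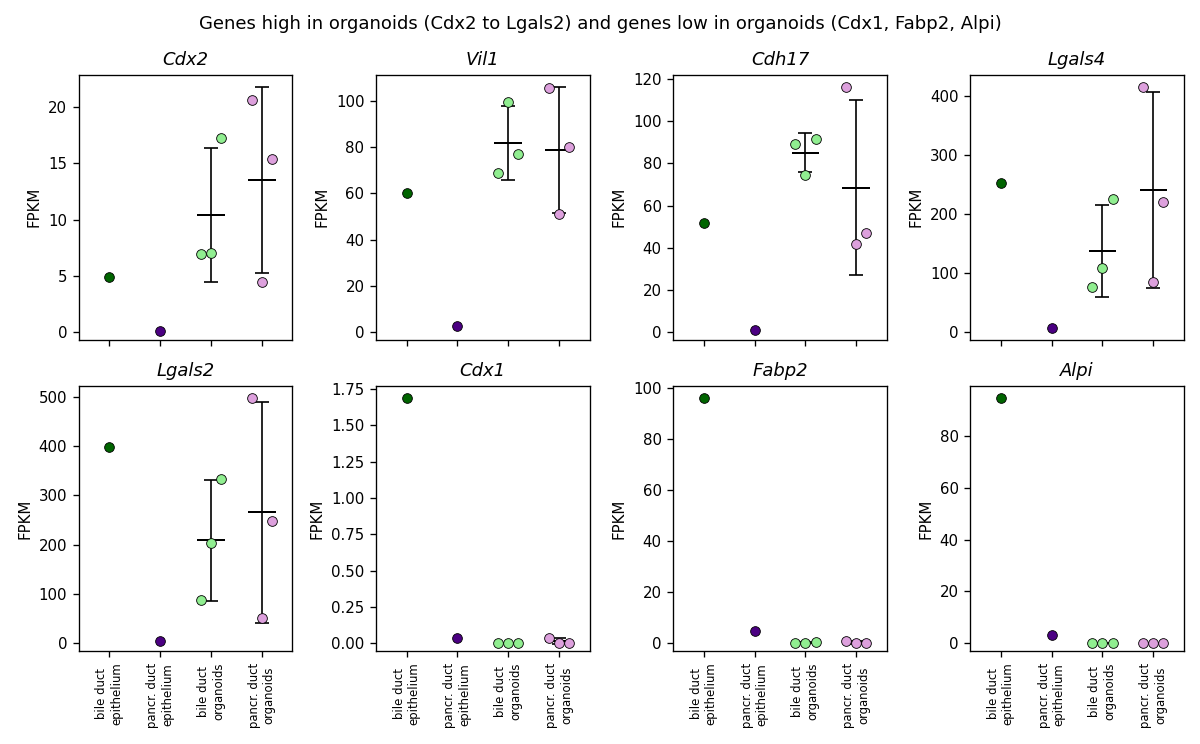
Deposited FPKM (y axis, from 0, own scale per gene) of 5 genes that are high in organoids and 3 that are low there, by group (x axis); dots are libraries, and for organoids the long bar is the mean and the whiskers are 1 SD of 3 cultures. Cdx2, Vil1, Cdh17, Lgals4 and Lgals2 are low only in pancreatic duct epithelium, while Cdx1, Fabp2 and Alpi are high only in bile duct epithelium.

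Of the 4 disaccharidases, Sis, Treh and Lct were at or near 0 in organoids, and Mgam was low but present in all of them. Mgam, which splits maltose, was at 15.0 and 0.795 FPKM in the epithelia, at 0.800, 0.241 and 0.418 in bile duct organoids and at 1.35, 1.72 and 0.425 in pancreatic duct organoids. As a gene of a family of similar sequence its counting was taken as uncertain, which was not tested. Sucrase-isomaltase, Sis, had 504 reads in bile duct epithelium (5.24 FPKM), 95 in pancreatic duct epithelium (0.823 FPKM) and none in any organoid. Trehalase, Treh, had 214 reads (8.11 FPKM), 15 reads (0.474 FPKM) and none in any organoid. Against a floor of 3 reads over each organoid group, bile duct epithelium was at least 733-fold higher in Sis and at least 311-fold higher in Treh, and pancreatic duct epithelium was at least 110.3-fold and 17.4-fold higher. Lactase, Lct, was at 2.50 and 0.182 FPKM in the epithelia and between 0.00887 and 0.0300 in the organoids, which is 1 to 4 reads a library.

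Among the surface peptidases, Anpep and Dpp4 stood apart from the rest in the epithelia. Anpep, aminopeptidase N, which is also a protein of bile canaliculi and of many other cells, was at 61.2 and 35.6 FPKM in the epithelia, at 0.0543, 0.0363 and 0 in bile duct organoids and at 0.110, 0.0275 and 0.0581 in pancreatic duct organoids. It fell from 3258 and 2273 reads in the epithelia to at most 7 in an organoid. Dpp4, a dipeptidyl peptidase that inactivates incretins, was at 10.3 and 7.23 FPKM in the epithelia, at 9.27, 7.85 and 4.00 in bile duct organoids and at 4.08, 2.43 and 3.75 in pancreatic duct organoids. Dpp4 was thus the only enzyme of the 30 genes at 1 FPKM or more in all 8 libraries.

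Alpi, the intestinal alkaline phosphatase and a classic marker of the differentiated enterocyte, was at 94.6 and 3.13 FPKM in the epithelia, at 0.0240, 0 and 0.0465 in bile duct organoids and at 0.0833, 0 and 0 in pancreatic duct organoids. That is 2846 and 113 reads in the epithelia and 0 to 3 in each organoid. Mep1b, the beta subunit of the metalloprotease meprin, was at 12.7 and 0.509 FPKM in the epithelia, at 0.0491, 0 and 0 in bile duct organoids and at 0.0284, 0 and 0 in pancreatic duct organoids. The alpha subunit Mep1a never reached 1 FPKM: it was at 0.675 and 0.0187 in the epithelia and between 0.0163 and 0.282 in organoids.

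Of the 4 transporters, those for glucose were also present in pancreatic duct epithelium. Slc5a1, the sodium-coupled glucose transporter, was at 15.0 and 6.89 FPKM in the epithelia, at 0.520, 0.0853 and 0.172 in bile duct organoids and at 0.237, 1.02 and 0.211 in pancreatic duct organoids. Slc2a2, the facilitative glucose transporter of basolateral membranes and also of hepatocytes and beta cells, was at 6.77 and 8.89 FPKM in the epithelia, at 0.205, 1.41 and 0.567 in bile duct organoids and at 0.338, 0.158 and 0.534 in pancreatic duct organoids. Islet genes (6, led by Ins2, Ins1 and Ppy) summed to 84.7 and 199 FPKM in the epithelia and to at most 1.07 in an organoid, and hepatocyte genes to the sums given above; their part in the Slc2a2 level was not tested. The fructose transporter Slc2a5 was at 1.14 and 0.590 FPKM and the oligopeptide transporter Slc15a1 at 2.26 and 0.186 FPKM in the epithelia, and no organoid exceeded 0.201 and 0.218 FPKM. All 6 organoids lay below both epithelia in Slc5a1, Slc2a2 and Slc2a5.

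Genes of fat and retinol handling were high in bile duct epithelium, with Rbp2 alone above the others in organoids. Rbp2, the cellular retinol-binding protein of the enterocyte (chr9:98486115-98509781), was at 120.3 and 6.12 FPKM in the epithelia, at 4.49, 2.96 and 3.56 in bile duct organoids and at 25.0, 15.4 and 4.14 in pancreatic duct organoids. Pancreatic duct organoids 1 and 2 stood above pancreatic duct epithelium and above every bile duct organoid, and pancreatic duct organoid 3 lay inside the range of the bile duct organoids. Fabp2, the intestinal fatty acid-binding protein (chr3:122895072-122899506), was at 96.0 and 4.63 FPKM in the epithelia, at 0.116, 0.259 and 0.282 in bile duct organoids and at 0.740, 0 and 0.0498 in pancreatic duct organoids. No organoid held more than 11 Fabp2 reads, against 1193 and 69 in the epithelia.

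Mttp, which loads lipid onto apolipoprotein B, was at 18.1 and 1.16 FPKM in the epithelia, at 1.12, 1.02 and 1.14 in bile duct organoids and at 1.37, 1.30 and 1.16 in pancreatic duct organoids. All organoids sat close to the pancreatic duct level, though Mttp overlaps Trmt10a over 1521 bases. Ces2e, a carboxylesterase of a cluster of similar genes whose counting is uncertain, was at 20.1 and 4.20 FPKM in the epithelia, at 0.978, 0.964 and 1.83 in bile duct organoids and at 1.27, 0.505 and 2.31 in pancreatic duct organoids. Apoa4, an apolipoprotein of chylomicrons, had 231 reads in bile duct epithelium (9.88 FPKM), 8 in pancreatic duct epithelium (0.285 FPKM) and none in any organoid, so that bile duct epithelium was at least 336-fold and pancreatic duct epithelium at least 9.29-fold higher than its organoids.

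The guanylin peptides are ligands of the guanylate cyclase that drives intestinal fluid secretion, and their genes lie 17135 bases apart on chromosome 4 on opposite strands. Guca2a was at 47.5 and 0 FPKM in the epithelia, at 0.0945, 0.253 and 0.275 in bile duct organoids and at 0.765, 1.34 and 0.647 in pancreatic duct organoids. Behind these stood 363 and 0 reads in the epithelia, 1 to 3 in each bile duct organoid and 7 to 14 in each pancreatic duct organoid. Guca2b was at 9.37 and 0.595 FPKM in the epithelia, between 0.920 and 1.12 in bile duct organoids and between 0.448 and 1.71 in pancreatic duct organoids. Pancreatic duct epithelium, without a Guca2a read, held 8 reads of the neighbouring Guca2b. Clca4a, a calcium-activated chloride channel regulator with a close copy in Clca4b that makes its counting uncertain, was at 13.7 FPKM in bile duct epithelium (531 reads), at 0 in pancreatic duct epithelium, at 0, 0 and 0.0181 in bile duct organoids and at 0, 0 and 0 in pancreatic duct organoids. Against a floor of 3 reads in pancreatic duct epithelium, bile duct epithelium was at least 145-fold higher in Guca2a and at least 212-fold higher in Clca4a.

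Between the epithelia, 24 of the 29 genes with at least 1 FPKM in either library were called higher in bile duct and 0 lower, against 8.79% and 4.49% of 15092 genes. Only 13 of the 29 also reached 1 FPKM in pancreatic duct epithelium. The others entered the count through their bile duct value alone, so nothing is read from it. Among the 13 genes at 1 FPKM or more in both epithelia, a rule chosen after the values were seen, 9 were called higher in bile duct and 0 lower, against 4.94% and 3.10% of 12951 genes. The median log2 difference of those 13 genes was 4.08, and that of the 12951 genes was -0.05. The 9 genes were Lgals2 (log2 difference 6.11), Lgals4 (5.14), Alpi (4.53), Cdhr5 (4.35), Fabp2 (4.10), Vil1 (4.09), Rbp2 (4.08), Mttp (3.17) and Ces2e (2.01). The 4 others were Slc5a1 at 1.00, Anpep at 0.74, Dpp4 at 0.44 and Slc2a2 at -0.38. Slc5a1 stood at the threshold: it was called higher, at 1.02 to 1.08, unscaled, under both other scalings and with a pseudocount of 0.1, and its ratio of deposited FPKM was 2.18. In the ratio of deposited FPKM, Gpa33 was 139-fold, Lgals2 84.3-fold, Cdhr2 83.0-fold and Cdh17 63.8-fold higher in bile duct, and Anpep 1.72-fold. The duct genes leaned the same way: 11 stood at 1 FPKM or more in both epithelia, 9 of them higher in bile duct and 0 lower. The median log2 difference of all 12 duct genes was 1.81. A count of higher calls thus does not set the intestinal genes apart from duct genes, and the difference in size was not tested. With 1 library a side none of these differences has a replicate check.

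From bile duct epithelium to its organoids, 25 of 29 genes were called lower and 0 higher, against 24.3% and 15.3% of 15227 genes. Most of the 29 passed the filter through the epithelium, where they are high, so nothing is read from that count either. Where the epithelium and all 3 organoids held 1 FPKM or more, a rule also chosen after the values were seen, 4 of 8 genes were lower and 0 higher, against 7.28% and 18.2% of 10458 genes. Those 4 were Rbp2 (-4.82 ± 0.28, SD over 3 organoids), Mttp (-3.29 ± 0.06), Lgals2 (-1.24 ± 0.89) and Lgals4 (-1.14 ± 0.72). Without bile duct organoid 1 both galectins were short of 2-fold, at -0.76 and -0.84. Dpp4 stood at -0.66 ± 0.60, with all 3 organoids below the epithelium. Cdx2 (0.75 ± 0.64), Cdh17 (0.59 ± 0.18) and Vil1 (0.30 ± 0.24) had all 3 organoids above the epithelium and did not reach 2-fold. With scaling on genes of at least 1 FPKM, an alternative under which the median change of all genes was -0.20 in place of 0.06, the Vil1 mean became -0.00. On this log2(FPKM + 1) scale the deepest falls were in Alpi (-6.63 ± 0.03), Fabp2 (-6.41 ± 0.10), Anpep (-6.00 ± 0.04), Guca2a (-5.42 ± 0.11) and Cdhr5 (-5.05 ± 0.41). This scale understates the change of low genes, so the order is not that of the ratios.

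From pancreatic duct epithelium to its organoids, 5 of the 18 genes with 1 FPKM or more in the epithelium or in the mean of the organoids were called higher and 7 lower, against 17.8% and 23.4% of 14984 genes. The other 12 genes were below 1 FPKM in both, though Guca2a reached 1.34 in pancreatic duct organoid 2, and nothing particular to the 30 genes is read from these shares. The 5 higher genes were Cdh17 (5.02 ± 0.82), Lgals2 (4.89 ± 1.67), Lgals4 (4.68 ± 1.14), Vil1 (4.30 ± 0.52) and Cdx2 (3.44 ± 1.04). All belong to the transcription factor and structural groups. Of the 6 genes at 1 FPKM or more in the epithelium and all 3 organoids, 3 were higher (Lgals2, Lgals4 and Vil1) and 1 lower (Dpp4), against 19.7% and 8.09% of 10369 genes. The Dpp4 call was lost unscaled and without pancreatic duct organoid 2 (-0.88). The 7 lower genes were Anpep (-5.21 ± 0.06), Slc2a2 (-3.00 ± 0.19), Slc5a1 (-2.55 ± 0.42), Fabp2 (-2.30 ± 0.44), Alpi (-2.09 ± 0.07), Ces2e (-1.32 ± 0.54) and Dpp4 (-1.04 ± 0.29). All of these are enzymes, transporters or a lipid carrier.

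**Figure D3:**
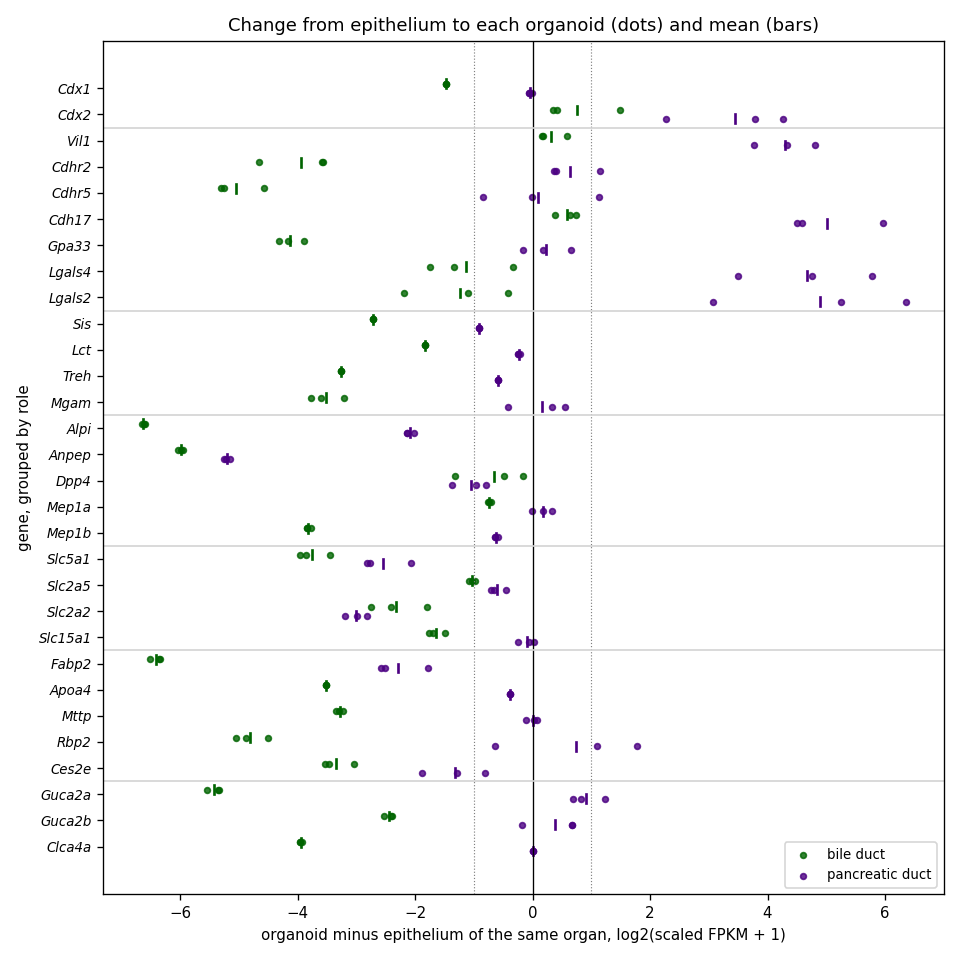
Change from the epithelium to each organoid of the same organ, as log2 difference of scaled FPKM + 1 (x axis), for each of the 30 genes (y axis); dots are organoids, short vertical bars their mean, and dotted lines mark 2-fold. Cdx2, Vil1, Cdh17, Lgals4 and Lgals2 lie right of the upper 2-fold line in pancreatic duct and closer to 0 in bile duct, while most enzymes and transporters lie left of 0 in both.

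A fit over all 8 libraries set the 6 organoids against the 2 epithelia with organ as a further term (limma, Benjamini-Hochberg over 14919 genes, two-sided). Its SE holds the spread between cultures and also any gap between the 2 epithelia that the organoids lack, which counts as error. For Alpi the SE was 0.86, against SDs of 0.03 and 0.07 over the bile duct and the pancreatic duct organoids. Of the 20 genes tested, 3 were higher and 6 lower in organoids, against 32.7% and 26.6% of all genes. These counts turned with the epithelium libraries. Where 1 is left out, the other stands alone and is assumed to vary as the organoids do, so those calls have no replicate check on the epithelium side: without pancreatic duct epithelium 0 were higher and 11 lower of 17, against 3132 and 1238 of 12976 genes, and without bile duct epithelium 5 were higher and 2 lower of 15, against 3336 and 1376 of 12972. Nothing particular to the 30 genes is read from them. The lower genes of the fit over 8 libraries were Anpep (log2 difference -5.61, SE 0.18, adjusted p 4.9e-07), Slc2a2 (-2.66, SE 0.28, adjusted p 0.00018), Slc5a1 (-3.16, SE 0.33, adjusted p 0.00018), Fabp2 (-4.35, SE 0.81, adjusted p 0.0030), Alpi (-4.36, SE 0.86, adjusted p 0.0040) and Ces2e (-2.34, SE 0.47, adjusted p 0.0045). Of these, the first 5 were called under every alternative in which they were tested, and Ces2e in 16 of 17, not without bile duct epithelium. Anpep, Fabp2 and Alpi were below 1 FPKM in every organoid and passed the filter only through the 2 epithelia. These genes were not tested when either epithelium was left out, so their repeated calls are no check on either library. Each was lower than both epithelia in 6 of 6 organoids.

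The higher genes of that fit were Cdh17 (2.80, SE 0.92, adjusted p 0.034), Vil1 (2.30, SE 0.80, adjusted p 0.042) and Cdx2 (2.09, SE 0.74, adjusted p 0.045). These calls depended on several choices. Of 18 settings, that of this fit included, Cdh17 was called in 11, Cdx2 in 10 and Vil1 in 9, and none of the 3 was called with no filter, with voom, with scaling on genes of at least 1 FPKM or without pancreatic duct organoid 3. Without pancreatic duct epithelium the differences were 0.58, 0.29 and 0.74, with adjusted p of 0.46, 0.59 and 0.51. Lgals4 (1.77, SE 1.25, adjusted p 0.26) and Lgals2 (1.82, SE 1.43, adjusted p 0.31) did not pass, and without pancreatic duct epithelium both turned to -1.15 and -1.25. Dpp4 was at -0.85 (SE 0.31, adjusted p 0.051); its value was negative under all 17 settings and called in 6 of them, with adjusted p from 0.017 to 0.30.

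Between the organoid groups no gene of the 30 was called. Of 12 tested, 0 passed, against 0% of 12106 genes in either direction (limma, smallest adjusted p 0.987). At an unadjusted p under 0.05 stood 310 of the 12106 genes and 2 of the 12: Dpp4, higher in bile duct organoids (0.81, SE 0.32, p 0.044 in limma), and Rbp2, higher in pancreatic duct organoids (-1.50, SE 0.60, p 0.045 in limma). A count model on the recovered reads (limma voom) also called 0, with 247 genes at an unadjusted p under 0.05. In limma without 1 organoid that number ran from 155 (without bile duct organoid 2) to 1039 (without bile duct organoid 1). For Cdx2 the difference was -0.26 (SE 0.57), for Vil1 0.08 (SE 0.28), for Cdh17 0.45 (SE 0.40), for Lgals4 -0.69 (SE 0.63) and for Lgals2 -0.03 (SE 0.88). For Lgals2 a 2-fold difference in either direction lies within 2 SE. Over the settings the sign turned for Lgals2 (-0.93 to 0.70), Cdx2 (-0.82 to 0.17) and Vil1 (-0.16 to 0.35), and it held for Cdh17 and Lgals4. In 1 of the 12, Mttp, the groups did not overlap, against 6.37% of the 12106 genes. Among the genes too low for that test Guca2a did not overlap either, with all pancreatic duct organoids above all bile duct organoids.

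Within the organoids the 5 genes called higher in pancreatic duct organoids varied from culture to culture. The highest culture exceeded the lowest 9.91-fold in Lgals2, 5.44-fold in Lgals4, 4.65-fold in Cdx2, 2.78-fold in Cdh17 and 2.07-fold in Vil1. Cdx2, Lgals4 and Lgals2 shared the order of their upper cultures: pancreatic duct organoid 1, then bile duct organoid 3, pancreatic duct organoid 3 and bile duct organoid 2, with bile duct organoid 1 and pancreatic duct organoid 2 lowest. Pancreatic duct organoid 1 was the highest culture for Vil1, Cdh17, Cdhr2, Cdhr5, Rbp2, Mttp and Fabp2 too. It was not so for Mgam, Slc5a1 and Guca2a, in which pancreatic duct organoid 2 was highest, nor for Dpp4 and Gpa33, in which bile duct organoid 1 was.

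A list of 34 other absorptive genes was set beside the 30. Between the epithelia 25 of 31 were called higher in bile duct and 1 lower, against 8.79% and 4.49% of all genes, but most of them entered through their bile duct value. Of the 15 at 1 FPKM or more in both epithelia, 9 were higher in bile duct and 1 lower, against 4.94% and 3.10% of all such genes. Duct genes ran alike under this rule, with 9 of 11 higher and 0 lower. From bile duct epithelium to organoids 2 of 32 were higher and 23 lower, against 15.3% and 24.3%, with the same limit. From pancreatic duct epithelium to organoids 6 of 18 were higher and 5 lower, against 17.8% and 23.4%. In the fit over 8 libraries 3 of 22 were higher and 6 lower, against 32.7% and 26.6% of all genes. The list's highest genes were Acsl5, an acyl-CoA synthetase, Krt20, a keratin of mature gut epithelium, and Fabp1, a fatty acid-binding protein. Acsl5 was at 57.6 and 32.1 FPKM in the epithelia and at 92.3 to 221 in organoids. Krt20 was at 178 and 1.68 FPKM and at 2.76 to 13.3, and Fabp1 at 165 and 6.79 FPKM and at 0 to 0.0905. Levels of Acsl5 above both epithelia in every organoid stood beside nearly absent Fabp1 there.

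Transcription factors of gut epithelium other than Cdx1 and Cdx2, a list of 12, were also divided between present and absent in culture. Hnf4a, a nuclear receptor of liver, gut and duct, was at 28.1 and 3.27 FPKM in the epithelia, at 76.5, 101 and 83.1 in bile duct organoids and at 96.9, 61.7 and 75.6 in pancreatic duct organoids. Klf5, a factor of dividing gut epithelium, was at 47.1 and 8.12 FPKM in the epithelia and at 130.0 to 168 in the organoids, and Klf4, a factor of differentiated cells, at 87.0 and 97.1 FPKM and at 13.6 to 38.3. In the fit over 8 libraries 4 of the 7 tested were higher in organoids and 1 lower, against 32.7% and 26.6% of all genes. Proliferation genes (5, led by Mki67, Top2a and Ccnb1) summed to 20.5 and 11.1 FPKM in the epithelia and to 96.0 to 226 in organoids; their part in the results above was not tested.

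**Figure D4:**
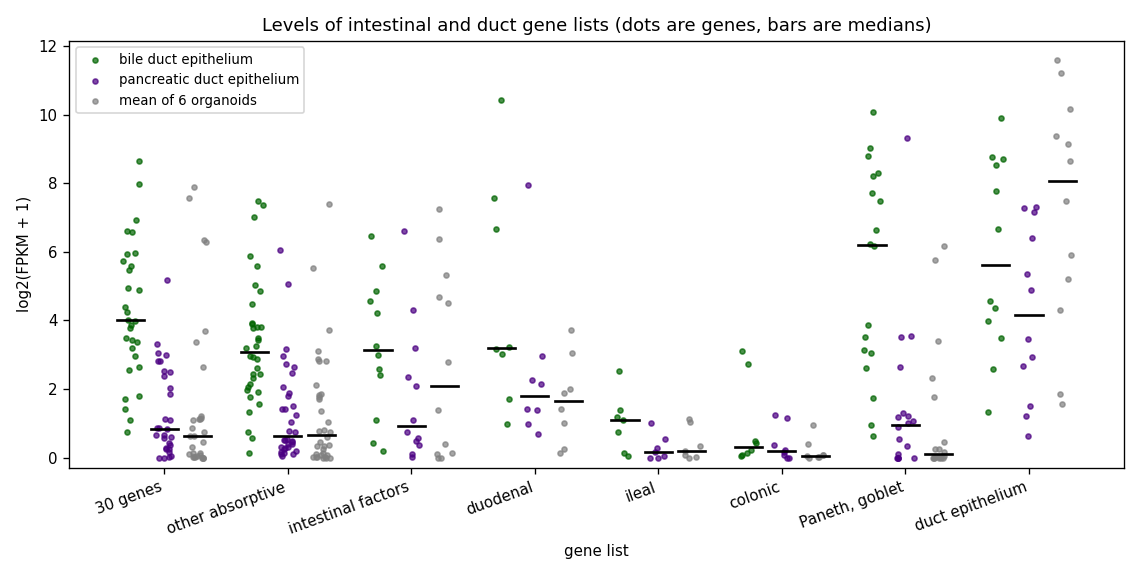
Level of each gene (dots), as log2(FPKM + 1) on the y axis, for the 30 genes and 7 other lists (x axis), in bile duct epithelium, pancreatic duct epithelium and the mean of 6 organoids; black bars are medians. The median of the 30 genes is 4.00 for bile duct epithelium, 0.85 for the pancreatic one and 0.63 for organoids, whereas that of the duct genes is 5.61, 4.17 and 8.08.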

How the data were processed

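RNA from 2 epithelia and 6 organoid cultures was sequenced after poly-T selection (NEBNext Ultra kit). The authors deposited 1 table of 31228 genes, which they had normalised to FPKM, per kilobase of exon and depth, as read from the deposited values since the header names no unit. FPKM times the merged exon length of GENCODE M21 (GRCm38) gave whole reads (within 0.05) in all libraries for 28310 genes, 27 of the 30 among them (not Slc15a1, Mep1b and Lgals2). Bowtie2 2.2.3, HISAT2 2.1.0, TopHat2 and HTSeq 0.6.0 are named in the submitters' processing notes; the build and the strand setting are not given in the sources used here.

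FPKM were scaled by an unweighted trimmed mean of log ratios (30% of ratios and 5% of levels trimmed) and tested as log2(scaled FPKM + 1) with limma 3.58.1 in R 4.3.3, with a trend and Benjamini-Hochberg adjustment at 0.05. Genes needed 1 FPKM in 3 organoids or in 2 of 8 libraries. A log2(value + 1) fold understates low genes. No 2 organoid libraries of a group agreed within sampling noise (chi-square per degree of freedom 19.6 to 118). Genes with at least 10 FPKM in any library are given in every library, and the up to 3 highest genes of each comparison list are named. The genes and the lists were chosen with earlier results of these data known. Floors cover counting error only. Promoters are RefSeq's, on GRCm38.p6.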

Additional observations from a re-analysis of the deposited data

Results flagged for a closer look

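After scaling, in 4 genes the 3 organoids of bile duct all lay below their epithelium and the 3 of pancreatic duct all lay above theirs, so that the change ran in opposite directions in the organs. All 4 were among the 20 members at 1 FPKM or more in at least 2 libraries, and 1.94% of 14919 such genes showed this pattern, 1.58% the reverse one. The 30 genes were mostly higher in bile duct than in pancreatic duct epithelium, so nothing particular to them is read from the count. Each epithelium is 1 library, so no test was made of the difference between the changes. Most of that difference is the gap between the same epithelia, bile duct minus pancreatic duct, with its sign turned. The gap was 6.11 in Lgals2, 5.14 in Lgals4, 4.51 in Cdhr2 and 5.68 in Guca2a. For Lgals2 the log2 change was -1.24 ± 0.89 (SD, n = 3) in bile duct and 4.89 ± 1.67 in pancreatic duct, a difference of -6.13. For Lgals4 it was -1.14 ± 0.72 and 4.68 ± 1.14, a difference of -5.82. For Cdhr2 it was -3.94 ± 0.62 and 0.64 ± 0.44, a difference of -4.58. For Guca2a it was -5.42 ± 0.11 and 0.91 ± 0.28, a difference of -6.33, with 7 to 14 reads in each pancreatic duct organoid and 0 in the epithelium. In each of these genes the organoids of both organs lay between the epithelia, except pancreatic duct organoid 1 for the galectins and bile duct organoid 1 for Cdhr2. In the FPKM as deposited Mttp showed the same order, with pancreatic duct organoid 3 at 1.160 against 1.157 in its epithelium, and after scaling it did not.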

How the results depend on the processing

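The counts of called members were recomputed under other scalings, a pseudocount of 0.1, a minimum of 10 FPKM and, chosen after seeing the data, scaling on genes of at least 1 FPKM. The 2-fold calls were also made at 4-fold and, for organoids, without each organoid. Both fits were also run with no filter, no trend, voom on recovered reads (chosen after seeing the data) and without each library, and that against the epithelia with no organ term. Counts over genes at 1 FPKM or more on both sides, and those of the comparison lists, were made under 1 setting. The median change of all genes from epithelium to organoids (bile duct, pancreatic duct) was 0.06 and 0.07 under the main scaling, 0.16 and 0.19 unscaled, -0.11 and -0.09 under median ratios and -0.20 and -0.17 with scaling on genes of at least 1 FPKM. The bile duct against pancreatic duct epithelium median of 3.17 became 4.25 with a pseudocount of 0.1 and 4.09 with a minimum of 10 FPKM. For bile duct organoids the median of -3.29 became -4.91 with a pseudocount of 0.1, and the 25 lower calls became 16 of 20 at 10 FPKM. For pancreatic duct organoids at 10 FPKM, 1 of 7 genes was lower and the median was 4.30. In the fit over 8 libraries the 3 higher calls became 1 with median ratios and 0 with no filter, voom or scaling on genes of at least 1 FPKM; the 6 lower calls became 12 with no filter and 1 of 7 at 10 FPKM. Over all genes, 3963 lower calls became 6817 with no filter and 1329 at 10 FPKM, and 4875 higher calls became 2986 with voom. Leaving out 1 library gave 0 to 5 higher and 2 to 11 lower members, and 3132 to 5032 higher and 1238 to 4161 lower genes. Both extremes of the member counts came without 1 epithelium: 5 higher and 2 lower without bile duct, 0 and 11 without pancreatic duct. Between organoid groups the calls over all genes were 0 to 1 higher and 0 to 10 lower, the 11 without pancreatic duct organoid 3, and none were members. With the replicate number as a block 0 genes were called and 293 had an unadjusted p under 0.05. Correlations of same-numbered cultures were -0.10, -0.44 and 0.48, and those of unlike-numbered cultures ran from -0.59 to 0.65. With so few cultures these values cannot decide whether the numbers pair them. No block was possible across kinds, as an epithelium has no number. Depth limits genes with under 10 reads in organoids, such as Cdx1, Alpi and Lct.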

Other observations

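Other gut cell types were measured in the same libraries. Tff3, a goblet cell peptide, was at 1071 and 5.25 FPKM in the epithelia and at 29.5 to 148 in organoids, and Spink4 at 519 and 10.7 FPKM and at 13.4 to 97.7. Zg16, a goblet cell and acinar granule protein, was at 446 and 636 FPKM and at most 1.25 in an organoid. Tff3, Zg16 and Spink4 were the highest of the 18 Paneth and goblet genes. Of the 18, 5 were at 1 FPKM or more in every organoid and 6 were at 0 in all of them. Defa24 was at 207 and 0.463 FPKM and at most 0.134 in an organoid, and Lyz1 at 71.3 and 10.4 FPKM and at 0 in every organoid. Tff2 of mucous gland cells was at 1373 and 246 FPKM and at 2.11 to 14.3, Muc6 at 190.0 and 0.615 FPKM and at most 0.424, and the calcium-binding S100g of duodenal absorptive cells at 100.0 and 6.74 FPKM and at 0.104 to 8.19. Of the 18 Paneth and goblet genes, 15 of 16 were called higher in bile duct than in pancreatic duct epithelium and 0 lower, against 8.79% and 4.49% of all genes, and 16 of 16 were called lower in bile duct organoids than in the epithelium, against 24.3%. Many of them passed the 1 FPKM filter through bile duct epithelium alone, so nothing is read from these counts. At 1 FPKM or more in both epithelia stood 9 genes, 8 of them higher in bile duct and 0 lower, against 4.94% and 3.10% of all such genes. Duct genes ran alike under this rule, with 9 of 11 higher and 0 lower.

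Gut factors that act with Cdx2 differed in culture. Isx, a homeobox factor of the retinoid pathway, was at 4.98 FPKM in bile duct epithelium, at 0.0722 in pancreatic duct epithelium and at 0 in all 6 organoids. Hnf4g was at 6.97 and 0.664 FPKM and at most 0.190 in an organoid, where its relative Hnf4a was at 61.7 or more. Gata4 was at 0, 0.0384 and 0.111 FPKM in bile duct organoids and at 4.01, 4.88 and 0.750 in pancreatic duct organoids, a gene too low in most organoids to be tested between the groups.

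Enteroendocrine genes (10 measured, led by Pyy, Chgb and Gcg) summed to 39.0 and 35.7 FPKM in the epithelia and to 0.443 to 0.807 in organoids. The ileal bile acid transporter Slc10a2 was at 1.16 and 0.125 FPKM in the epithelia, at 1.84, 0.157 and 0.144 in bile duct organoids and at 1.45, 2.09 and 1.45 in pancreatic duct organoids, so 4 of 6 organoids lay above both epithelia; Slc51a and Amn, the other leading ileal genes, were at most 4.76 and 3.23 FPKM in any of the 8 libraries. Slc26a3, an anion exchanger high in colon, was at 7.55 and 1.21 FPKM and at most 0.0536 in an organoid; Mettl7b and Aqp8 came next in that list. A set of 3 kidney genes (Umod, Slc34a1 and Lrp2), measured as a contrast, summed to 0.0558 and 0.495 FPKM in the epithelia and to at most 0.0184 in organoids. Ttr, a plasma protein of liver, was at 157 and 69.4 FPKM in the epithelia and at 5.88 to 141 in organoids.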
